A study of Mus musculus with 6 samples.

Results

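Of 15458 gene rows counted in sorted Kupffer cells, 67 were cytochrome P450 genes. They were taken by name from the deposited count table: symbols made of Cyp, a family number, subfamily letters and a gene number, without pseudogenes and with at least 10 counts over the 6 libraries. The rule used names and total counts only, not the difference between groups, but the members were chosen with earlier results of these data known. A gene with almost no counts in a group could thus enter only through the other group. Another 4 symbols of that form had fewer counts, namely Cyp2c66 with 5, Cyp2a22 and Cyp2c39 with 6 each and Cyp26c1 with 9. The members closest to the limit were Cyp3a44 with 10 counts and Cyp4x1 with 11. Cyp51 has no subfamily letter and stayed out.

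Kupffer cells, which are macrophages that live in the liver sinusoids, were sorted by FACS on day 18 from wild type C57BL/6 mice that carried tumours of the mouse hepatoma line Hepa1-6. The tumour cells overexpressed erythropoietin in the KC_Epo group (Hepa1-6_EpoOE, 3 libraries) and carried only the empty vector in KC_EV (Hepa1-6_EV, 3 libraries), so all 6 libraries came from tumour-bearing livers. PolyA RNA was sequenced in bulk to between 23201076 and 33280754 counts per library. The labels number the mice of a group and say nothing more about separate animals, so the p-values speak to the spread from library to library.

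P450 enzymes hold a heme group and use it to insert an oxygen atom into drugs, steroids, bile acids, retinoids and fatty acids. Those of the endoplasmic reticulum take electrons from NADPH through P450 reductase, and those of mitochondria take them through a ferredoxin. In the liver most drug-oxidising P450 enzymes are made by hepatocytes, above all those around the central vein, and their mRNAs follow receptors such as PPARalpha, AhR and CAR and the sex-specific pattern of growth hormone. Macrophages are known for a smaller set, among them the mitochondrial sterol hydroxylase Cyp27a1 and the leukotriene hydroxylase Cyp4f18.

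Of the 67 genes, 54 had enough counts to be tested, 30 were higher in KC_Epo, 7 were lower and 17 did not pass. A gene was called at an adjusted p under 0.05 in edgeR's quasi-likelihood test, adjusted over all 13120 genes tested. Of those, 16.9% were called higher and 15.4% lower, 32.3% in all. The counts of called genes in every list below are to be read against these shares. Over 4-fold rises were seen for 23 P450 genes, where 1.23% of all genes tested were called and over 4-fold higher. The members that rose were mostly liver enzymes for drugs and steroids, with Cyp2e1, Cyp1a2, the 11 tested Cyp2c genes, Cyp4a10, Cyp4a14 and Cyp7a1 among them. The members that fell were Cyp1b1, Cyp2d22, Cyp2j6, Cyp2j9, Cyp2s1, Cyp4b1 and Cyp26b1. Cyp27a1, Cyp4f13, Cyp4f16 and Cyp4f18, which had at least 22.8 CPM in every library, did not pass. The median log2 fold change of the tested P450 genes was 1.71, against -0.0045 over all genes tested. Setting the 2 tested genes that had no count in KC_EV to their lower bounds could not move the P450 median, since both bounds lie above it. Scaled by library sizes alone, 28 P450 genes were higher and 8 lower, while over all genes the split shifted to 1193 higher and 3616 lower, against 2219 and 2015 here; with upper-quartile factors it was 1724 and 2527.

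Levels per library are given in CPM, counts relative to the TMM-scaled library size, in the order of the replicate numbers. The 67 genes summed to 1783, 825 and 1224 CPM in KC_Epo 1 to 3, against 716, 856 and 802 CPM in KC_EV 1 to 3. KC_Epo 2 lay within the KC_EV range and KC_Epo 1 and 3 lay above it. The 19 hepatocyte markers, which hold no P450 gene, summed to 20190, 5747 and 12030 CPM in KC_Epo and to 2555, 3187 and 2902 CPM in KC_EV; 9 of them rose, 0 fell, and none was at 0 counts. The 10 sinusoidal endothelial markers summed to 2243, 1479 and 1775 CPM in KC_Epo and to 3859, 4645 and 4348 CPM in KC_EV, with 8 lower. The 10 Kupffer cell markers summed to 41110, 44470 and 41820 CPM in KC_Epo and to 30580, 27440 and 29320 CPM in KC_EV, with 7 higher and 2 lower. The cell type on the labels was thus strongly present, with hepatocyte and endothelial transcripts beside it. The part of these other transcripts in the P450 differences was not tested, and in bulk samples fewer cells of a type and less RNA per cell cannot be told apart.

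**Figure D1:**
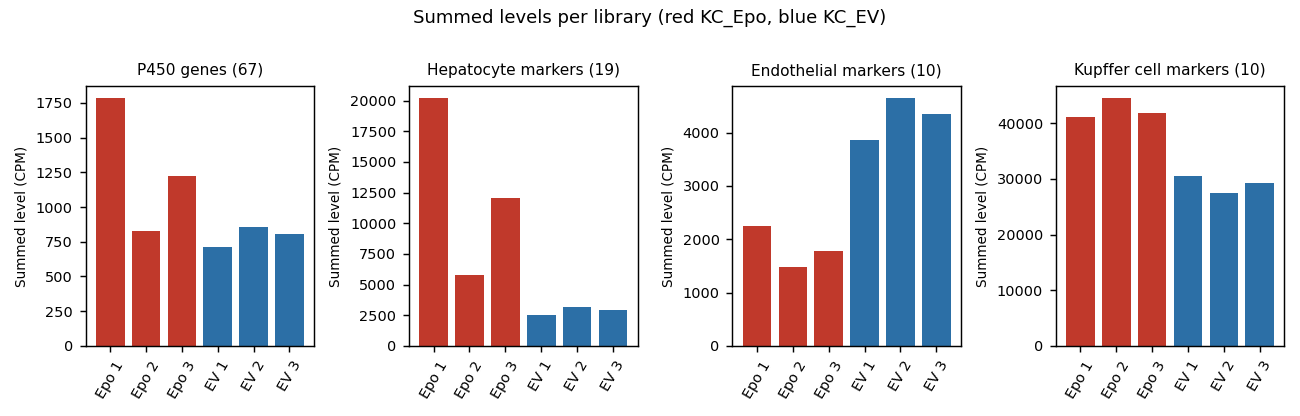
Bars give the summed level in CPM (vertical axes, each from 0) in KC_Epo 1 to 3 (red) and KC_EV 1 to 3 (blue) for the 67 P450 genes, 19 hepatocyte markers, 10 sinusoidal endothelial markers and 10 Kupffer cell markers. The P450 and hepatocyte sums share the order KC_Epo 1, 3, 2, while the Kupffer cell sum differs little among the KC_Epo libraries.

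The 3 KC_Epo libraries differed among themselves in a common order. Among the 54 tested members, 36 had the order KC_Epo 1, then 3, then 2, which 26.7% of all genes tested had, and the hepatocyte sum had the same order. KC_Epo 1 was a median of 3.34 times KC_Epo 2 over the 29 higher members that reached 1 CPM, against 3.51 times for the hepatocyte sum, 1.52 times for the endothelial sum and 0.92 times for the Kupffer cell sum. Over all genes, KC_Epo 1 and KC_Epo 2 differed most, with a chi-square of 81.1 per gene, against 6.03 to 21.3 for the other pairs within a group. Many calls were lost when a single library was left out. Without KC_EV 1, KC_EV 2, KC_EV 3 or KC_Epo 3 the number of higher members was 17, 16, 18 and 20. Without KC_EV 2, KC_EV 3 or KC_Epo 3 the number of lower members was 4, 3 and 4. With the replicate number fitted as a block, 13 of the called members at 1 CPM or more lost their call. The losses given gene by gene below are mostly those with a library left out and are not a full list. Of the 35 called members at 1 CPM or more, 13 kept their call in every setting that tested them: Cyp2a5, Cyp2b9, Cyp2c23, Cyp2c38, Cyp2c40, Cyp2c68, Cyp2c69, Cyp4a10, Cyp4f15 and Cyp7a1 were higher, and Cyp1b1, Cyp4b1 and Cyp26b1 were lower.

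Among the 54 tested members, the groups did not overlap for 34 that were above and 7 that were below in every KC_Epo library, against 24.1% and 24.2% of all genes tested. Per kilobase of annotated exon, the highest member in KC_Epo was Cyp27a1 with 88.3 CPM per kilobase, followed by Cyp2e1 with 70.3, Cyp3a11 with 41.5 and Cyp2f2 with 18.5. In KC_EV the order of levels per kilobase was Cyp27a1 with 76.02, Cyp4b1 with 73.9, Cyp4f18 with 16.9 and Cyp4f16 with 16.6 CPM per kilobase, the last pair close together. On this scale of group means Cyp27a1 led in both groups, and the genes behind it were different ones. The order depends on the exon lengths used. In mean CPM, without division by length, Cyp3a11 stood above Cyp27a1 in KC_Epo, with 211.4 against 191.9. Cyp4b1 stood narrowly above Cyp27a1 in KC_EV, with 166.6 against 165.2. As a share of all P450 counts, Cyp27a1 held 11.3, 23.2 and 14.9% in KC_Epo 1 to 3 and 20.7, 20.4 and 21.5% in KC_EV 1 to 3. Cyp4b1 held 2.91, 3.44 and 3.13% in KC_Epo and 19.97, 21.7 and 21.4% in KC_EV.

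**Figure D2:**
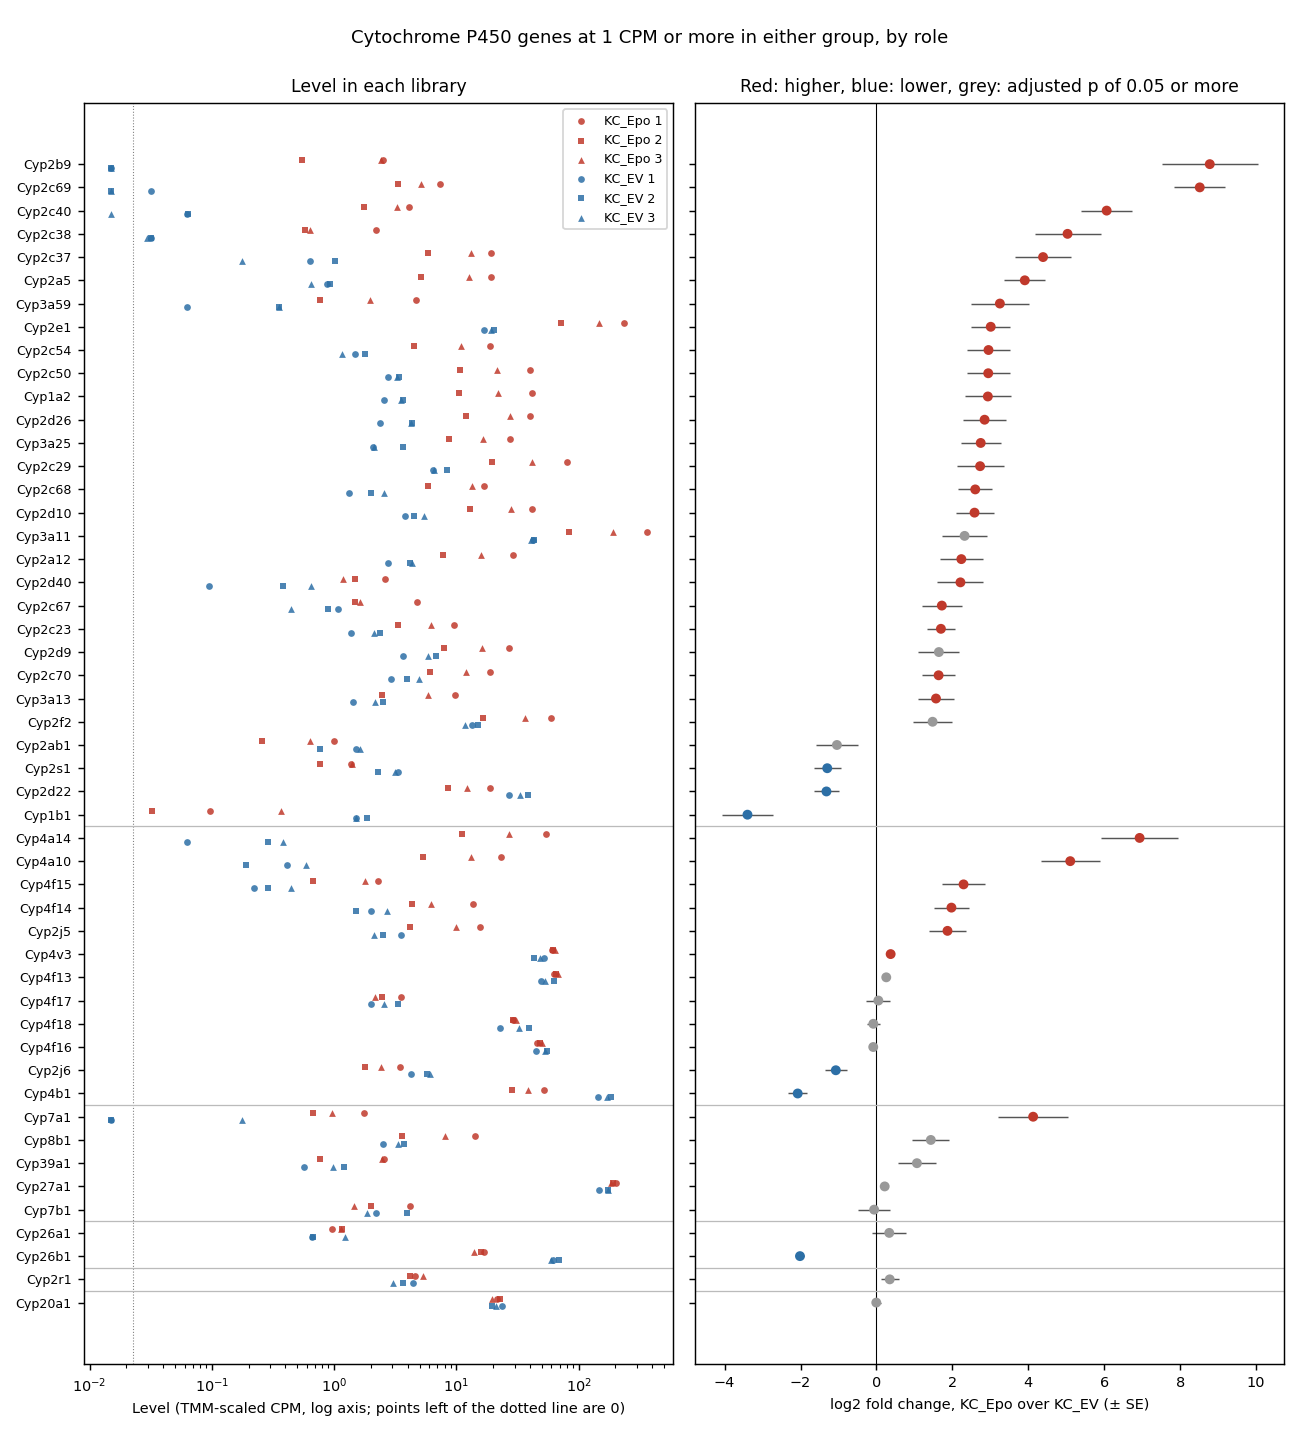
The 50 P450 genes that reached a mean of 1 CPM in either group, ordered by role and fold change, with the level in each library on a log axis (left; KC_Epo red, KC_EV blue, a marker shape per replicate number) and the log2 fold change with its standard error (right). Most CYP1, CYP2 and CYP3 genes lie to the right of 0, while Cyp27a1, Cyp4f13, Cyp4f16 and Cyp4v3 lie close to it; the fitted values of Cyp2b9, Cyp2c69 and Cyp2c38, with 0 to 3 counts in KC_EV, depend on the prior count of the fit.

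The feature that joins the family is a short stretch around the cysteine that binds the heme iron. It was searched as a fixed amino acid pattern in the longest reading frame of the longest coding transcript of each member. A match was found for 59 of the 67 members, in 49 distinct versions of 30 bases. The other members were not shown to lack the stretch. It is shown, from the GENCODE vM21 transcripts on GRCm38, for members that rose, fell or held the highest levels, since it shows both what these genes share and how close some of them are in sequence; the cysteine codon, the eighth of 10, is in capitals.
Cyp2c40: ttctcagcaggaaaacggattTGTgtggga
Cyp2c69: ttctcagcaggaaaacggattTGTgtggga
Cyp2c37: ttctcaacagggaaacggataTGTgcagga
Cyp2b9: ttctccacaggaaagcgcattTGTcttggt
Cyp2e1: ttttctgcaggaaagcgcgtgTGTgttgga
Cyp3a11: tttgggaatggacccaggaacTGCcttggc
Cyp4a10: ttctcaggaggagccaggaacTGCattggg
Cyp4a14: ttctcaggaggatcaaggaacTGCattggg
Cyp4b1: ttttctgcagggcccaggaatTGCattggg
Cyp27a1: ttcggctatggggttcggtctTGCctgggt
Cyp26b1: tttggcggtggcgtgcggaccTGCctgggc
Cyp2c40 and Cyp2c69 had the same 30 bases, as had Cyp2c67 and Cyp2c68. Cyp4a10 and Cyp4a14 differed at 2 bases, and Cyp2c37 and Cyp2c40 at 5. Over whole transcripts, 72.1% of the 50-base stretches of Cyp2c40 also occurred in another gene, 54.8% of those of Cyp2c69, 40.8% of those of Cyp2a5 and 30.5% of those of Cyp4a10, but 0.245% of those of Cyp4a14. For 22 members this share was over 20%, and for 20 it was 0. Reads from the shared stretches cannot be assigned to 1 gene, so single values of these 22 members are uncertain. They include Cyp2c40, Cyp2c67, Cyp2c68 and Cyp2c69, Cyp2c37, Cyp2c50 and Cyp2c54, Cyp2a4, Cyp2a5 and Cyp2a12, Cyp2d9, Cyp2d10 and Cyp2d40, Cyp3a25 and Cyp3a59, and Cyp4a10 and Cyp4a32.

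The CYP1, CYP2 and CYP3 families had 40 members by name, of which 34 were tested, 24 rose and 5 fell. For 5 of them, Cyp2j5, Cyp2j6, Cyp2j9, Cyp2u1 and Cyp2r1, the values stand with the genes of fatty acids or vitamin D. The remaining class, for drugs, toxins and steroids, had 35 members, of which 30 were tested, 23 rose and 3 fell. Their median log2 fold change was 2.67. They summed to 1147, 317 and 671 CPM in KC_Epo 1 to 3, against 145, 178 and 163 CPM in KC_EV 1 to 3, and the groups did not overlap. Within CYP1 the members went opposite ways. Cyp1a2, the liver enzyme that clears caffeine, had 41.8, 10.49 and 22.1 CPM in KC_Epo 1 to 3, against 2.55, 3.65 and 3.54 CPM in KC_EV 1 to 3. All KC_Epo libraries were above all KC_EV libraries, and the log2 fold change was 2.93 ± 0.61 (standard error; adjusted p = 0.0257, edgeR). Cyp1b1, which hydroxylates estradiol and is made outside hepatocytes, had 0.0964, 0.0322 and 0.365 CPM in KC_Epo 1 to 3, against 1.51, 1.85 and 1.505 CPM in KC_EV 1 to 3. Its KC_Epo libraries lay below its KC_EV libraries without overlap, with a log2 fold change of -3.40 ± 0.67 (standard error; adjusted p = 0.00238, edgeR), on 3, 1 and 8 counts in KC_Epo and 48, 58 and 51 counts in KC_EV. Cyp1a1, the classic AhR target, was too low to test, with 6, 4 and 2 counts in KC_Epo 1 to 3 and 1, 6 and 3 counts in KC_EV 1 to 3. The call of Cyp1a2 was lost without KC_Epo 3, KC_EV 1, KC_EV 2 or KC_EV 3 (adjusted p = 0.0695 to 0.0975).

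The Cyp2a and Cyp2b genes showed some of the widest gaps between groups. Cyp2a5, which oxidises coumarin, had 19.2, 5.15 and 12.6 CPM in KC_Epo 1 to 3, against 0.883, 0.927 and 0.649 CPM in KC_EV 1 to 3. Its lowest KC_Epo library stood above its highest KC_EV library, and its log2 fold change was 3.91 ± 0.54 (standard error; adjusted p = 0.00265, edgeR). Cyp2a4, a steroid hydroxylase close to Cyp2a5 in sequence, had 19, 16 and 31 counts in KC_Epo 1 to 3 and 0 counts in each KC_EV library. Taking 3 counts summed over KC_EV as the floor, it was at least 25.3-fold higher in KC_Epo (adjusted p in edgeR = 0.00148). Cyp2b9, a female-typical liver enzyme, had 78, 17 and 53 counts in KC_Epo and again 0 in each KC_EV library, at least 56.8-fold higher on the same floor (adjusted p in edgeR = 0.000749). For both genes every KC_Epo library held at least 16 counts. Cyp2a12, which hydroxylates bile acids, had 29.2, 7.82 and 15.8 CPM in the KC_Epo libraries and 2.74, 4.16 and 4.31 CPM in the KC_EV libraries. It rose by 2.23 ± 0.56 (standard error; adjusted p = 0.0403, edgeR) without overlap, a call that was lost without KC_Epo 3, KC_EV 1, KC_EV 2 or KC_EV 3 (adjusted p = 0.0925 to 0.128). The call was also lost without a filter on counts (adjusted p in edgeR = 0.0524). Cyp2b10, the classic CAR target, was too low to test, with 29, 3 and 7 counts in KC_Epo 1 to 3 and 4, 0 and 1 counts in KC_EV 1 to 3.

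Cyp2a4 and Cyp2a5 are a close pair whose promoters show how little sequence sets them apart, while one had 0 counts in KC_EV and the other did not. The 150 bases of each, from RefSeq on GRCm38.p6, plus strand, at chr7:26307042-26307191 for Cyp2a4 and chr7:26835188-26835337 for Cyp2a5, are given with the bases that differ in capitals.
Cyp2a4: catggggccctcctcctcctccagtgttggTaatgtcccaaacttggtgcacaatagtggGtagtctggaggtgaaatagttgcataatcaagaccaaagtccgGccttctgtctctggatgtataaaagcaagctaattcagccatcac
Cyp2a5: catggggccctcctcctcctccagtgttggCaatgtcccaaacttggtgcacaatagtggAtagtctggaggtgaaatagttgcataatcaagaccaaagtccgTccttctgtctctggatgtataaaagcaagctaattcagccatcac
They differed at 3 of 150 bases, an identity of 98%. The letters TATAAA stood 28 bases before the annotated start in Cyp2a4 and 29 bases before it in Cyp2a5. On either strand of the 250 bases upstream, TATAAA occurred in 22 of the 54 P450 genes with a promoter in that collection and in 12.4% of all 32851 promoters. The count for P450 genes is per gene, with the letters in any of its promoters, and the share is per promoter. They are thus unlike measures. In transcripts, 36.1% of the 50-base stretches of Cyp2a4 also occurred in Cyp2a5, so counts of the pair are not fully separate.

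All 11 tested Cyp2c genes rose; 13 members belong to this subfamily, whose enzymes oxidise arachidonic acid, steroids and drugs. Cyp2c29, an arachidonic acid epoxygenase and per kilobase the highest Cyp2c gene in both groups, had 80.5, 19.7 and 41.6 CPM in KC_Epo 1 to 3, against 6.400, 8.44 and 6.58 CPM in KC_EV 1 to 3. Its groups did not overlap and its log2 fold change was 2.73 ± 0.62 (standard error; adjusted p = 0.0345, edgeR). Cyp2c37, of a related branch of the subfamily, had 19.1, 5.86 and 13.2 CPM in the KC_Epo libraries and 0.6305, 1.02 and 0.177 CPM in the KC_EV libraries. Cyp2c50, of the same branch, had 40.2, 10.8 and 21.6 CPM in the KC_Epo libraries and 2.77, 3.39 and 3.27 CPM in the KC_EV libraries. Cyp2c54, the remaining gene of that branch here, had 18.8, 4.54 and 10.8 CPM in the KC_Epo libraries and 1.48, 1.79 and 1.15 CPM in the KC_EV libraries. Cyp2c37 had the largest log2 fold change of these, 4.39 ± 0.74 (standard error; adjusted p = 0.0106, edgeR), against 2.94 ± 0.57 for Cyp2c50 (adjusted p in edgeR = 0.0198) and 2.95 ± 0.57 for Cyp2c54 (adjusted p in edgeR = 0.0121). Per kilobase Cyp2c37 and Cyp2c54 stood at 6.97 and 6.38 CPM in KC_Epo and at 0.335 and 0.825 CPM in KC_EV and were thus closer in KC_Epo, although 30.1%, 30.7% and 25.7% of the 50-base stretches of Cyp2c37, Cyp2c50 and Cyp2c54 occur in other genes, which leaves their order uncertain. Cyp2c70, the enzyme that makes the muricholic acids of mouse bile, had 18.7, 6.05 and 11.9 CPM in the KC_Epo libraries and 2.900, 3.96 and 4.93 CPM in the KC_EV libraries. It rose less, by 1.64 ± 0.44 (standard error; adjusted p = 0.0353, edgeR). Cyp2c23, an arachidonic acid epoxygenase of kidney and liver, had 9.61, 3.31 and 6.15 CPM in the KC_Epo libraries and 1.39, 2.37 and 2.12 CPM in the KC_EV libraries and rose by 1.70 ± 0.38 (standard error; adjusted p = 0.00668, edgeR). The call of Cyp2c37 was lost with the replicate number fitted as a block (adjusted p in edgeR = 0.0534). That of Cyp2c29 was lost without KC_Epo 3, KC_EV 1, KC_EV 2 or KC_EV 3 (adjusted p = 0.0894 to 0.115). That of Cyp2c50 was lost without KC_Epo 3, KC_EV 1, KC_EV 2 or KC_EV 3 (adjusted p = 0.0553 to 0.0842). Those of Cyp2c54 and Cyp2c70 were lost without any 1 KC_EV library, and that of Cyp2c70 also without KC_Epo 3, with an adjusted p of 0.0525 to 0.135.

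Cyp2c69, Cyp2c40 and Cyp2c38 held the largest fold changes of the subfamily. Cyp2c69 had 230, 103 and 113 counts in KC_Epo 1 to 3 and 1, 0 and 0 counts in KC_EV 1 to 3. It was almost without reads in KC_EV, and the ratio of the group levels was 514, with an exact 95% counting interval of 91.7 to 20330 (adjusted p in edgeR = 3.28e-06). Cyp2c40, an arachidonic acid hydroxylase, had 127, 55 and 72 counts in KC_Epo 1 to 3 and 2, 2 and 0 counts in KC_EV 1 to 3. No KC_Epo library came near the KC_EV level, and the log2 fold change was 6.06 ± 0.68 (standard error; adjusted p = 4.64e-05, edgeR). Cyp2c38 had 68, 18 and 14 counts in KC_Epo 1 to 3 and 1, 1 and 1 counts in KC_EV 1 to 3. Its ratio was 38.4, with a counting interval of 12.8 to 189 (adjusted p in edgeR = 0.00103). Cyp2c68 had 16.8, 5.82 and 13.4 CPM in KC_Epo 1 to 3, against 1.32, 2.01 and 2.57 CPM in KC_EV 1 to 3, and Cyp2c67 had 4.79, 1.48 and 1.64 CPM in the KC_Epo libraries and 1.07, 0.895 and 0.443 CPM in the KC_EV libraries. Both were present in KC_EV as well, and they rose by 2.60 ± 0.44 (adjusted p in edgeR = 0.00508) and 1.72 ± 0.53 (adjusted p in edgeR = 0.0272). The call of Cyp2c67 was lost without KC_Epo 1, KC_EV 1, KC_EV 2 or KC_EV 3 (adjusted p = 0.0544 to 0.171) and with limma-voom (adjusted p = 0.0693). The untested pair was Cyp2c55, with 22, 0 and 5 counts in KC_Epo 1 to 3 and 0, 3 and 0 counts in KC_EV 1 to 3, and Cyp2c65, with 15, 1 and 2 counts in KC_Epo 1 to 3 and 5, 18 and 4 counts in KC_EV 1 to 3. Cyp2c65 is known from the intestine, and its counts overlapped between groups.

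Cyp2e1, which oxidises ethanol and turns acetaminophen into its toxic product, had 235, 72.3 and 147 CPM in KC_Epo 1 to 3, against 16.96, 20.2 and 19.4 CPM in KC_EV 1 to 3. The lowest KC_Epo library was above the highest KC_EV library, and Cyp2e1 rose by 3.01 ± 0.51 (standard error; adjusted p = 0.0158, edgeR). This call was lost without KC_Epo 3, KC_EV 1, KC_EV 2 or KC_EV 3 (adjusted p = 0.0506 to 0.0674), while the fold change stayed between 2.94 and 3.06 in those fits. Cyp2f2, which oxidises naphthalene and in the liver is a periportal gene, had 59.5, 16.7 and 36.2 CPM in the KC_Epo libraries and 13.5, 15.03 and 11.8 CPM in the KC_EV libraries. Although the groups did not overlap, Cyp2f2 did not pass, at 1.48 ± 0.52 (standard error; adjusted p = 0.101, edgeR); it passed without KC_Epo 2 (adjusted p in edgeR = 0.00051) and with DESeq2 (adjusted p = 0.0152). Cyp2s1, an extrahepatic member found in epithelia and macrophages, had 1.38, 0.772 and 1.41 CPM in the KC_Epo libraries and 3.31, 2.27 and 3.16 CPM in the KC_EV libraries and fell by 1.30 on the log2 scale (SE 0.36, adjusted p in edgeR = 0.0162). Its call was lost without KC_EV 1 or KC_EV 3 (adjusted p = 0.0546 to 0.0638). Cyp2ab1 had 0.996, 0.257 and 0.638 CPM in the KC_Epo libraries and 1.51, 0.767 and 1.62 CPM in the KC_EV libraries and did not pass, at -1.04 ± 0.55 (standard error; adjusted p = 0.167, edgeR).

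Among the 5 Cyp2d genes, whose human relative oxidises many drugs, 3 rose, 1 fell and 1 did not pass. Cyp2d10 had 41.6, 13.03 and 27.8 CPM in KC_Epo 1 to 3, against 3.81, 4.48 and 5.46 CPM in KC_EV 1 to 3. Cyp2d26 had 40.04, 12.00 and 27.2 CPM in the KC_Epo libraries and 2.396, 4.35 and 4.25 CPM in the KC_EV libraries. Both were higher in every KC_Epo library and rose by 2.58 ± 0.50 (adjusted p in edgeR = 0.0192) and 2.85 ± 0.57 (adjusted p in edgeR = 0.0222). Cyp2d40 had 2.603, 1.48 and 1.19 CPM in the KC_Epo libraries and 0.0946, 0.384 and 0.649 CPM in the KC_EV libraries and rose by 2.21 ± 0.60 (standard error; adjusted p = 0.0152, edgeR). Cyp2d9, a male-typical testosterone hydroxylase, had 27.1, 7.95 and 16.4 CPM in the KC_Epo libraries and 3.69, 6.87 and 5.901 CPM in the KC_EV libraries. Its groups did not overlap, and it missed the threshold at 1.64 ± 0.54 (standard error; adjusted p = 0.0792, edgeR); it passed without KC_Epo 1 (adjusted p in edgeR = 0.046), without KC_Epo 2 (adjusted p in edgeR = 0.00194) and with DESeq2 (adjusted p = 0.0115). Cyp2d22 was the exception, with 18.8, 8.56 and 12.3 CPM in KC_Epo 1 to 3, against 27.1, 38.5 and 33.5 CPM in KC_EV 1 to 3. It fell by 1.32 on the log2 scale (SE 0.32, adjusted p in edgeR = 0.0299) and was the only Cyp2d gene whose KC_EV libraries were all above its KC_Epo libraries. Its call was lost without KC_Epo 3, KC_EV 2 or KC_EV 3 (adjusted p = 0.0836 to 0.113). The calls of Cyp2d10 and Cyp2d26 were lost without KC_Epo 3 or any 1 KC_EV library, with an adjusted p of 0.0584 to 0.0861. That of Cyp2d40 was lost without KC_Epo 1 or KC_EV 2 (adjusted p = 0.0534 to 0.0548).

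The Cyp3a genes, which oxidise bile acids, steroids and a large share of drugs, had 5 members and 4 were tested. Cyp3a11, the main Cyp3a enzyme of mouse liver, had 359.8, 83.7 and 191 CPM in KC_Epo 1 to 3, against 42.6, 43.5 and 40.9 CPM in KC_EV 1 to 3. Its groups were well apart, yet it just missed the threshold, with a log2 fold change of 2.32 ± 0.60 (standard error; adjusted p = 0.05004, edgeR). It passed without KC_Epo 2 (adjusted p in edgeR = 0.00705), with DESeq2 at an adjusted p of 0.000177 and with limma-voom at 0.00741. Cyp3a25 had 27.4, 8.72 and 16.6 CPM in the KC_Epo libraries and 2.08, 3.68 and 2.12 CPM in the KC_EV libraries and rose by 2.75 ± 0.53 (standard error; adjusted p = 0.01598, edgeR). Cyp3a13 had 9.67, 2.45 and 5.88 CPM in the KC_Epo libraries and 1.42, 2.49 and 2.15 CPM in the KC_EV libraries and rose by 1.57 ± 0.48 (standard error; adjusted p = 0.03798, edgeR). Cyp3a59 had 4.69, 0.772 and 1.96 CPM in the KC_Epo libraries and 0.06305, 0.352 and 0.354 CPM in the KC_EV libraries and rose by 3.25 ± 0.76 (standard error; adjusted p = 0.00985, edgeR). Only Cyp3a13 among these had overlapping groups, KC_Epo 2 lying just under KC_EV 2. Cyp3a44, a female-typical member, had 1, 1 and 8 counts in KC_Epo and 0 in each KC_EV library, at least 3.84-fold higher on the floor of 3 counts and not tested. The call of Cyp3a25 was lost without KC_EV 1 or KC_EV 3 (adjusted p = 0.0539 to 0.0738), and that of Cyp3a13 without KC_Epo 1, KC_Epo 3, KC_EV 1, KC_EV 2 or KC_EV 3 (adjusted p = 0.056 to 0.129). Cyp3a13 also lost it with limma-voom (adjusted p = 0.0972) and with library sizes only (adjusted p in edgeR = 0.0538). Cyp3a59 lost its call with the replicate number fitted as a block (adjusted p in edgeR = 0.0661).

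The enzymes of fatty acids and eicosanoids had 19 members, of which 13 were tested, 6 rose and 3 fell, the median log2 fold change being 0.26. The rise was steepest for the Cyp4a genes, fatty acid omega-hydroxylases and classic PPARalpha targets. Cyp4a14 had 53.7, 11.1 and 27.02 CPM in KC_Epo 1 to 3, against 0.06305, 0.288 and 0.384 CPM in KC_EV 1 to 3. It stood at 1672, 346 and 593 counts in KC_Epo and 2, 9 and 13 counts in KC_EV, and it rose by 6.93 ± 1.01 (standard error; adjusted p = 0.0101, edgeR). Cyp4a10 had 23.2, 5.31 and 13.2 CPM in the KC_Epo libraries and 0.4098, 0.192 and 0.5901 CPM in the KC_EV libraries, on 723, 165 and 289 counts in KC_Epo and 13, 6 and 20 counts in KC_EV. It rose by 5.10 ± 0.78 (standard error; adjusted p = 0.00787, edgeR), and neither gene had a KC_Epo library near the KC_EV range. The call of Cyp4a14 was lost without KC_EV 2 (adjusted p = 0.0517) and under limma-voom, where its adjusted p was 0.0627. Cyp4a31 had 8, 3 and 14 counts in KC_Epo 1 to 3 and 0, 0 and 1 counts in KC_EV 1 to 3 and was not tested; its ratio was 28.8, with a counting interval of 4.71 to 1182. Cyp4a32 had 8, 0 and 6 counts in KC_Epo 1 to 3 and 4, 0 and 0 counts in KC_EV 1 to 3. Both are close copies of Cyp4a10, with which they share the 30-base heme stretch.

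The PPARalpha axis was read beside them. Ppara itself was almost without reads and not tested, at 0.0321, 0.193 and 0.0911 CPM in KC_Epo 1 to 3, against 0, 0.0639 and 0.0295 CPM in KC_EV 1 to 3. Of 23 tested PPARalpha targets outside the P450 family, 9 rose and 1 fell, the median log2 fold change being 0.16. Angptl4, a secreted inhibitor of lipoprotein lipase, had 18.99, 20.9 and 21.9 CPM in the KC_Epo libraries and 5.08, 5.21 and 7.199 CPM in the KC_EV libraries and rose by 1.82 ± 0.16 (standard error; adjusted p = 6.33e-06, edgeR). Acot1, an acyl-CoA thioesterase, rose by 0.99 ± 0.11 (standard error; adjusted p = 3.29e-05, edgeR), and Plin2, a lipid droplet coat protein, by 0.52 ± 0.08 (standard error; adjusted p = 0.000347, edgeR). These 3 genes differed little among the KC_Epo libraries, while Cyp4a14 in KC_Epo 1 was 4.83 times its level in KC_Epo 2.

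Of the 6 tested Cyp4f genes, 2 rose and none fell. Cyp4f18, which hydroxylates leukotriene B4 in myeloid cells, had 29.1, 28.8 and 30.9 CPM in KC_Epo 1 to 3, against 22.8, 39.1 and 32.3 CPM in KC_EV 1 to 3. Its groups overlapped, with a log2 fold change of -0.08 ± 0.17 (standard error; adjusted p = 0.752, edgeR). Cyp4f16 had 45.4, 48.5 and 50.1 CPM in the KC_Epo libraries and 45.1, 54.8 and 52.8 CPM in the KC_EV libraries and did not pass, at -0.09 ± 0.09 (standard error; adjusted p = 0.494, edgeR); with library sizes only it was called lower, at -0.25 (adjusted p in edgeR = 0.0499). Cyp4f13 had 62.5, 65.7 and 68.4 CPM in the KC_Epo libraries and 48.9, 62.3 and 53.3 CPM in the KC_EV libraries and did not pass, at 0.26 ± 0.09 (standard error; adjusted p = 0.0503, edgeR); it passed without KC_Epo 1 (adjusted p in edgeR = 0.0314) or KC_EV 2 (adjusted p in edgeR = 0.0169). Cyp4f17 had 3.503, 2.48 and 2.14 CPM in the KC_Epo libraries and 2.02, 3.33 and 2.54 CPM in the KC_EV libraries and overlapped between groups, at 0.05 ± 0.31 (standard error; adjusted p = 0.919, edgeR). The other tested pair rose. Cyp4f14, an enzyme of leukotriene B4 and vitamin E breakdown in liver, had 13.7, 4.34 and 6.24 CPM in KC_Epo 1 to 3, against 1.99, 1.503 and 2.69 CPM in KC_EV 1 to 3 and rose by 1.97 ± 0.45 (standard error; adjusted p = 0.0136, edgeR), a call lost without KC_EV 1 or KC_EV 2 (adjusted p = 0.0675 to 0.0704). Cyp4f15 had 2.28, 0.676 and 1.78 CPM in the KC_Epo libraries and 0.221, 0.288 and 0.443 CPM in the KC_EV libraries and rose by 2.29 ± 0.58 (standard error; adjusted p = 0.00998, edgeR). Both had the order KC_Epo 1, 3, 2. Cyp4v3, the counterpart of the human fatty acid hydroxylase of Bietti crystalline dystrophy, had 60.2, 62.01 and 64.03 CPM in the KC_Epo libraries and 52.4, 43.2 and 48.1 CPM in the KC_EV libraries. It rose by 0.37 ± 0.08 (standard error; adjusted p = 0.00542, edgeR), with no overlap between groups, and lost the call with library sizes only, at 0.21 (adjusted p in edgeR = 0.0568). Cyp4f37, Cyp4f40 and Cyp4x1 held between 11 and 19 counts in all and were not tested.

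Cyp4b1, which oxidises fatty acids and bioactivates plant toxins, was one of the 3 that fell in every setting, with 51.96, 28.4 and 38.3 CPM in KC_Epo 1 to 3, against 143, 185 and 172 CPM in KC_EV 1 to 3. Its KC_Epo libraries were all far below its KC_EV libraries, and it fell by 2.08 on the log2 scale (SE 0.26, adjusted p in edgeR = 0.00406). The Cyp2j genes, arachidonic acid epoxygenases, split. Cyp2j5, the liver and kidney member, had 15.7, 4.21 and 9.94 CPM in KC_Epo 1 to 3, against 3.53, 2.49 and 2.12 CPM in KC_EV 1 to 3 and rose by 1.87 ± 0.50 (standard error; adjusted p = 0.0334, edgeR). Cyp2j6 had 3.44, 1.802 and 2.42 CPM in the KC_Epo libraries and 4.22, 5.75 and 6.14 CPM in the KC_EV libraries and fell by 1.07 on the log2 scale (SE 0.28, adjusted p in edgeR = 0.01301). Cyp2j9, below 1 CPM, had 8, 7 and 1 counts in KC_Epo 1 to 3 and 24, 25 and 29 counts in KC_EV 1 to 3 and also fell (adjusted p in edgeR = 0.0229). The call of Cyp2j5 was lost without KC_Epo 3, KC_EV 1, KC_EV 2 or KC_EV 3 (adjusted p = 0.0611 to 0.138) and with limma-voom (adjusted p = 0.0507), and that of Cyp2j6 without KC_Epo 3, KC_EV 2 or KC_EV 3 (adjusted p = 0.0514 to 0.0626). Cyp4b1, Cyp2j6 and Cyp2d22 fell in libraries in which the endothelial sum was also lower, with 1832 ± 385 CPM in KC_Epo and 4284 ± 397 CPM in KC_EV (SD, n = 3 each). Ehd3, an endothelial trafficking protein, had 152, 78.3 and 108 CPM in the KC_Epo libraries and 449, 538 and 491 CPM in the KC_EV libraries, and Aqp1, a water channel, had 174, 96.2 and 126 CPM in the KC_Epo libraries and 479, 592 and 551 CPM in the KC_EV libraries. The part of endothelial RNA in the fall of these P450 genes was not tested.

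Of the other eicosanoid enzymes, 5 of 14 tested members rose and 4 fell, the median log2 fold change being -0.18. Ptgis, prostacyclin synthase and itself a heme-thiolate enzyme, had 113, 112 and 110.1 CPM in the KC_Epo libraries and 39.6, 46.8 and 47.1 CPM in the KC_EV libraries and rose by 1.32 ± 0.08 (standard error; adjusted p = 5.46e-07, edgeR). Hpgds, which makes prostaglandin D2, rose by 0.89 ± 0.08 (standard error; adjusted p = 5.72e-06, edgeR). Ptgs2, the inducible cyclooxygenase, had 7.58, 6.18 and 8.57 CPM in the KC_Epo libraries and 25.7, 26.7 and 24.2 CPM in the KC_EV libraries and fell by 1.78 on the log2 scale (SE 0.14, adjusted p in edgeR = 2.44e-06).

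The enzymes of cholesterol and bile acids had 6 members, all tested, of which 1 rose and 0 fell. Cyp7a1, the rate-limiting enzyme of bile acid synthesis, was that gene, with 55, 21 and 21 counts in KC_Epo 1 to 3 and 0, 0 and 6 counts in KC_EV 1 to 3. All KC_EV counts came from 1 library, and every KC_Epo library held more than it; the log2 fold change was 4.13 ± 0.93 (standard error; adjusted p = 0.00563, edgeR). Cyp8b1, which sets the share of cholic acid, had 14.2, 3.604 and 8.02 CPM in KC_Epo 1 to 3, against 2.52, 3.71 and 3.33 CPM in KC_EV 1 to 3. Its KC_Epo 2 level lay among the KC_EV libraries, and Cyp8b1 did not pass, at 1.43 ± 0.49 (standard error; adjusted p = 0.0696, edgeR); it passed without KC_Epo 2 (adjusted p in edgeR = 0.000134) and with DESeq2 (adjusted p = 0.00085). Cyp39a1, an oxysterol hydroxylase, had 2.57, 0.772 and 2.46 CPM in the KC_Epo libraries and 0.568, 1.22 and 0.974 CPM in the KC_EV libraries and overlapped, at 1.06 ± 0.50 (standard error; adjusted p = 0.126, edgeR); it passed without KC_Epo 2 (adjusted p in edgeR = 0.0228). Cyp7b1, the oxysterol hydroxylase of the alternative pathway, had 4.15, 1.995 and 1.46 CPM in the KC_Epo libraries and 2.21, 3.93 and 1.86 CPM in the KC_EV libraries and overlapped as well, at -0.06 ± 0.42 (standard error; adjusted p = 0.925, edgeR). Cyp27a1, the mitochondrial sterol hydroxylase with which the alternative pathway starts, had 202, 192 and 182 CPM in KC_Epo 1 to 3, against 148, 175 and 173 CPM in KC_EV 1 to 3. It was the most even of these genes, and its log2 fold change of 0.22 ± 0.08 (standard error; adjusted p = 0.0582, edgeR) did not pass, although the groups did not overlap; with DESeq2 it passed (adjusted p = 0.046). Cyp46a1, the cholesterol hydroxylase of brain, had 17, 26 and 31 counts in KC_Epo 1 to 3 and 17, 31 and 27 counts in KC_EV 1 to 3 and did not pass (adjusted p in edgeR = 0.746).

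Beyond the P450 family, 5 of 12 bile acid synthesis genes rose and 0 fell, the median log2 fold change being 0.29. Scp2, a peroxisomal sterol carrier, had 201, 216 and 196 CPM in the KC_Epo libraries and 168, 159 and 160.5 CPM in the KC_EV libraries and rose by 0.33 ± 0.07 (standard error; adjusted p = 0.00366, edgeR). Hsd17b4, the peroxisomal multifunctional enzyme, rose by 0.36 ± 0.08 (standard error; adjusted p = 0.00717, edgeR), and Abcb11, the bile salt export pump, by 1.82 ± 0.43 (standard error; adjusted p = 0.00734, edgeR). Abcb11 had the KC_Epo order of the hepatocyte sum, with 6.23, 2.32 and 4.38 CPM in the KC_Epo libraries and 0.788, 1.85 and 1.003 CPM in the KC_EV libraries, whereas Scp2 did not.

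Retinoic acid is cleared by the Cyp26 enzymes, and Cyp26b1 gave the lowest adjusted p of all P450 genes. It had 16.97, 15.9 and 14.04 CPM in KC_Epo 1 to 3, against 61.3, 68.99 and 59.9 CPM in KC_EV 1 to 3. The KC_Epo libraries lay close together and far below the KC_EV libraries, a log2 fold change of -2.02 ± 0.10 (standard error; adjusted p = 8.34e-08, edgeR). Cyp26a1 had 0.964, 1.16 and 1.14 CPM in the KC_Epo libraries and 0.662, 0.671 and 1.24 CPM in the KC_EV libraries and overlapped between groups, at 0.34 ± 0.45 (standard error; adjusted p = 0.606, edgeR). Of 12 tested retinoid partners, 2 rose and 2 fell, the median log2 fold change being -0.38. These counts were close to the shares over all genes tested, 16.9% higher and 15.4% lower. Rara, a retinoic acid receptor, had 114, 112 and 115 CPM in the KC_Epo libraries and 64.3, 74.5 and 68.2 CPM in the KC_EV libraries and rose by 0.72 ± 0.07 (standard error; adjusted p = 2.49e-05, edgeR). Rarg, another such receptor, had 34.7, 20.5 and 26.6 CPM in the KC_Epo libraries and 47.8, 69.98 and 59.5 CPM in the KC_EV libraries and fell by 1.11 on the log2 scale (SE 0.24, adjusted p in edgeR = 0.0192). Aldh1a2, which makes retinoic acid, had 0.964, 0.901 and 0.729 CPM in the KC_Epo libraries and 2.87, 3.55 and 2.24 CPM in the KC_EV libraries and fell by 1.73 on the log2 scale (SE 0.35, adjusted p in edgeR = 0.00311). Of 6 stellate cell markers, 2 fell, 0 rose and 4 did not pass, with sums of 35.7 ± 15.1 CPM in KC_Epo and 87.9 ± 5.10 CPM in KC_EV (SD, n = 3 each); their part was not tested.

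Vitamin D and steroid hormone enzymes were few and low. Cyp2r1, which makes circulating 25-hydroxyvitamin D, had 4.59, 4.18 and 5.38 CPM in KC_Epo 1 to 3, against 4.41, 3.65 and 3.04 CPM in KC_EV 1 to 3 and overlapped, at 0.35 ± 0.24 (standard error; adjusted p = 0.283, edgeR). Cyp27b1, which makes the active hormone, had 0, 2 and 3 counts in KC_Epo 1 to 3 and 9, 1 and 1 counts in KC_EV 1 to 3 and was not tested. Around them, 5 of 7 tested vitamin D and phosphate partners rose and 0 fell, the median log2 fold change being 1.27. Fgf23, the phosphate hormone that restrains Cyp27b1 in kidney, had 884, 240 and 264 counts in KC_Epo 1 to 3 and 0, 1 and 0 counts in KC_EV 1 to 3. Reads were present in every KC_Epo library, while KC_EV held 1 count in all. Fgfr1, its receptor, had 120.0, 114 and 114 CPM in the KC_Epo libraries and 37.8, 47.2 and 38.8 CPM in the KC_EV libraries and rose by 1.49 ± 0.09 (standard error; adjusted p = 5.08e-07, edgeR). Rxra, the dimer partner of the vitamin D receptor, rose by 0.65 ± 0.08 (standard error; adjusted p = 0.000108, edgeR), and Dhcr7, which uses up the vitamin D precursor, by 0.62 ± 0.09 (standard error; adjusted p = 0.000424, edgeR). Of the steroid hormone enzymes, Cyp11a1, which starts steroid synthesis from cholesterol, had 8, 16 and 15 counts in KC_Epo 1 to 3 and 16, 6 and 17 counts in KC_EV 1 to 3 and did not pass (adjusted p in edgeR = 0.792). Cyp17a1, which leads towards androgens, had 24, 4 and 10 counts in KC_Epo 1 to 3 and 1, 0 and 1 counts in KC_EV 1 to 3 and was not tested; its ratio was 21.9, with a counting interval of 5.66 to 187. Cyp20a1, without an assigned substrate, had 21.7, 22.9 and 19.6 CPM in KC_Epo 1 to 3, against 23.8, 19.5 and 21.2 CPM in KC_EV 1 to 3 and a log2 fold change of -0.01 ± 0.11 (standard error; adjusted p = 0.976, edgeR).

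To set the P450 genes against other liver transcripts of the same library, each count was divided by the summed counts of the 19 hepatocyte markers. Alb alone made up 71.8% of that sum in KC_Epo and 67.5% in KC_EV. The 35 genes of the drug, toxin and steroid class together came to 5.68, 5.51 and 5.58% of the hepatocyte sum in KC_Epo 1 to 3, against 5.66, 5.59 and 5.61% in KC_EV 1 to 3. Those groups overlapped, while the hepatocyte sum itself ranged from 2555 to 20190 CPM. The overlap depended on which genes were placed in the class. With all 40 CYP1, CYP2 and CYP3 genes, a choice made after the data were seen, the share was 5.8, 5.69 and 5.725% in KC_Epo 1 to 3, against 6.19, 6.003 and 6.03% in KC_EV 1 to 3, and every KC_Epo library lay below every KC_EV library. The genes of fatty acids and eicosanoids came to 1.81, 4.59 and 2.62% in KC_Epo and 12.8, 12.6 and 12.9% in KC_EV. Those of cholesterol and bile acids came to 1.11, 3.47 and 1.63% in KC_Epo and 6.03, 5.80 and 6.19% in KC_EV. Both of these classes lay below KC_EV in every KC_Epo library, as did 93.1% of all genes tested when taken singly. The hepatocyte sum that divides them averaged 12660 CPM in KC_Epo and 2881 CPM in KC_EV. In CPM the fatty acid class averaged 315 in KC_Epo and 367 in KC_EV, and the cholesterol class 207 and 173. Their place below KC_EV thus largely reflects the divisor. Cyp3a11 alone made up 20.2, 10.1 and 15.6% of all P450 counts in KC_Epo and 5.95, 5.08 and 5.096% in KC_EV.

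Single genes shifted against the hepatocyte sum. On the log2 ratio to the hepatocyte sum, 18 of the 50 members at 1 CPM or more were above KC_EV in every KC_Epo library, 23 were below and 9 overlapped, where 0.595% of all genes tested were above and 93.1% below. With 3 libraries against 3 an exact permutation test cannot go under 0.1, so these are descriptions. Of the 18, 10 reached 1 CPM in KC_Epo only, so they were included through the group in which they were high. Above were Cyp1a2, Cyp2a5, Cyp2b9, Cyp2c29, Cyp2c37, Cyp2c38, Cyp2c40, Cyp2c50, Cyp2c54, Cyp2c69, Cyp2d10, Cyp2d26, Cyp2e1, Cyp3a25, Cyp3a59, Cyp4a10, Cyp4a14 and Cyp7a1. Per 100000 hepatocyte-marker counts, Cyp2e1 had 1166, 1258 and 1224 counts in KC_Epo 1 to 3, against 664, 633 and 667 in KC_EV 1 to 3. Cyp4a14 had 266, 194 and 225 in KC_Epo, against 2.47, 9.03 and 13.2 in KC_EV. Cyp3a11 had 1782, 1456 and 1585 in KC_Epo, against 1668, 1364 and 1409 in KC_EV, and its groups overlapped. For Cyp2e1 and Cyp4a14 the KC_Epo libraries were close together on this scale, in contrast to their CPM. Cyp2d9 had 134, 138 and 136 in KC_Epo and 144, 216 and 203 in KC_EV, and Cyp2f2 had 294, 290.0 and 301 in KC_Epo and 529, 472 and 408 in KC_EV. Both were lower in KC_Epo on this scale.

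**Figure D3:**
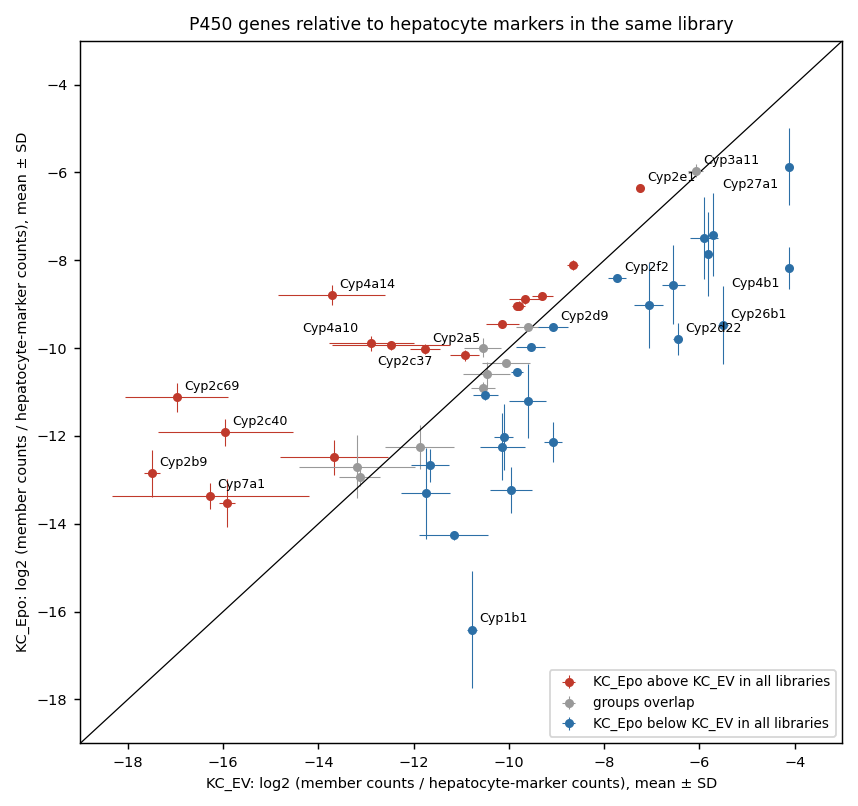
Each point is a P450 gene at 1 CPM or more, placed by the mean log2 ratio of its counts to the summed hepatocyte-marker counts in KC_EV (horizontal) and KC_Epo (vertical), with bars of 1 SD over 3 libraries and a line of equal ratio. The 18 red genes lie above the line in every KC_Epo library, with Cyp2c69, Cyp4a14, Cyp2b9 and Cyp2c40 farthest from it, and the 23 blue genes lie below.

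The hepatocyte list is not uniform, which bears on this ratio. Its 11 secreted proteins, which include Alb, summed to 20150, 5735 and 12010 CPM in KC_Epo and to 2530, 3152 and 2874 CPM in KC_EV, and 9 of them rose. Its 8 intracellular enzymes summed to 40.0, 12.4 and 22.0 CPM in KC_Epo and to 24.4, 35.2 and 28.1 CPM in KC_EV, and 0 of them passed with edgeR in either direction. With DESeq2 and with limma-voom the count was also 0, and 1 of the 8 had an unadjusted p under 0.05 by each tool. That split was made after the values were seen. The part of hepatocyte RNA in the P450 levels was not tested.

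Within the liver lobule, 9 members are known as genes of the hepatocytes around the central vein: Cyp1a2, Cyp2a5, Cyp2c29, Cyp2c37, Cyp2c50, Cyp2c54, Cyp2e1, Cyp3a11 and Cyp3a25. Of these, 8 rose and none fell, Cyp3a11 being the one that did not pass. In their whole drug, toxin and steroid class, 23 of 30 tested genes rose. The 8 pericentral genes that rose were also above in the ratio to the hepatocyte sum. The 1 periportal member, Cyp2f2, did not pass, although its CPM was higher in every KC_Epo library, with a log2 fold change of 1.48. It was below in that ratio, as were 93.1% of all genes tested. Lists of zoned genes outside the P450 family were chosen after the data were seen. The pericentral list gave a median log2 fold change of 0.41, with 4 of 9 higher. The periportal list gave a median of -0.32, with 2 of 9 higher, and none was lower in either list. Over all genes tested, 16.9% were higher. Among the pericentral genes, Lect2, a secreted hepatocyte protein, had 10.3, 2.83 and 7.38 CPM in the KC_Epo libraries and 0.315, 0.799 and 0.502 CPM in the KC_EV libraries and rose by 3.66 ± 0.54 (standard error; adjusted p = 0.00129, edgeR). Gulo, which makes vitamin C, rose by 2.98 ± 0.45 (standard error; adjusted p = 0.000814, edgeR). Glul, glutamine synthetase, which macrophages also make, rose by 0.88 ± 0.08 (standard error; adjusted p = 6.66e-06, edgeR) and was even among the KC_Epo libraries. Among the periportal genes, Aldh1b1 rose by 1.64 ± 0.17 (standard error; adjusted p = 0.000104, edgeR), Ctsc, a lysosomal protease of macrophages too, by 0.50 ± 0.09 (standard error; adjusted p = 0.00125, edgeR), and Hsd17b13 did not pass, at 1.76 ± 0.54 (standard error; adjusted p = 0.0623, edgeR).

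Several members are known to be higher in female than in male mouse liver: Cyp2a4, Cyp2b9, Cyp2c40, Cyp2c69, Cyp3a44, Cyp4a10, Cyp4a14, Cyp17a1 and Cyp39a1. Of the 7 that were tested, 6 rose and 0 fell, and Cyp39a1 did not pass. In KC_EV, 3 of the 9 had 0 counts in every library and Cyp2c69, Cyp2c40 and Cyp17a1 had between 0 and 2 counts per library. In KC_Epo the same 6 genes had counts in all 3 libraries. Members needed at least 10 counts over both groups, so genes this low in KC_EV were included through KC_Epo. Their gap between groups is thus partly set by the choice of members. Of the male-typical members, Cyp2d9 and Cyp7b1 did not pass. Both were below in the ratio to the hepatocyte sum, as were 93.1% of all genes tested. In CPM, Cyp2d9 was higher in every KC_Epo library, and Cyp7b1 overlapped between groups. Cyp2u1 had 9, 0 and 0 counts in KC_Epo 1 to 3 and 13, 13 and 2 counts in KC_EV 1 to 3 and was not tested. Cyp4a12a and Cyp4a12b, male-typical genes whose names lie outside the naming rule, did not pass either (adjusted p in edgeR = 0.806 and 0.593). Transcripts of 4 Y-linked genes were counted in all 6 libraries.

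**Figure D4:**
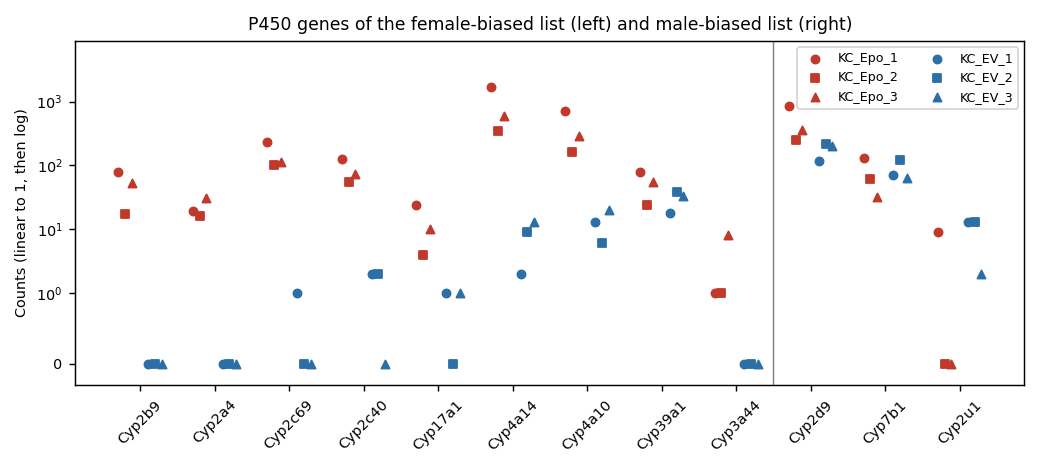
Counts per library (vertical axis, linear up to 1 and logarithmic above) of 9 P450 genes typical of female mouse liver (left of the line) and 3 typical of male liver (right), with KC_Epo in red left of KC_EV in blue for each gene. Cyp2b9, Cyp2a4 and Cyp3a44 are at 0 in all KC_EV libraries, whereas the male-typical Cyp2d9 and Cyp7b1 have counts in every library of both groups. The genes at 0 in KC_EV passed the count limit for members through KC_Epo alone.

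Genes outside the P450 family with a known sex bias, listed after the data were seen, gave mixed counts. Of 3 tested female-typical genes, 1 rose and 1 fell. Abcd2, a peroxisomal fatty acid transporter, rose by 0.82 ± 0.14 (standard error; adjusted p = 0.00125, edgeR). Cux2, a repressor of male-typical genes in female liver, had 1.74, 0.708 and 1.82 CPM in the KC_Epo libraries and 3.47, 4.38 and 5.04 CPM in the KC_EV libraries and fell by 1.60 on the log2 scale (SE 0.36, adjusted p in edgeR = 0.00535), and Prom1 did not pass, at -2.04 ± 0.80 (standard error; adjusted p = 0.0965, edgeR). Of 12 male-typical genes, 2 rose and 2 fell, close to the 16.9% higher and 15.4% lower over all genes tested. C6, a complement component, rose by 0.39 ± 0.08 (standard error; adjusted p = 0.003203, edgeR). Slco1a1, an organic anion transporter, rose by 1.85 ± 0.41 (standard error; adjusted p = 0.0112, edgeR). Selenbp2 had 0.225, 0.129 and 0.0911 CPM in the KC_Epo libraries and 2.68, 4.92 and 3.92 CPM in the KC_EV libraries and fell by 4.62 on the log2 scale (SE 0.46, adjusted p in edgeR = 2.25e-05).

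Of 11 genes listed as electron donors and partners of P450 enzymes, 10 had a row in the counts. The lowest of them had a mean of 6.87 CPM over the 6 libraries. Por, the reductase that passes electrons to P450 enzymes of the endoplasmic reticulum, had 104, 114 and 109.7 CPM in KC_Epo 1 to 3, against 64.1, 68.8 and 72.1 CPM in KC_EV 1 to 3. Its groups did not overlap and it rose by 0.68 ± 0.07 (standard error; adjusted p = 3.79e-05, edgeR), with little spread among the KC_Epo libraries. Of the 10 tested genes of this list, which also holds Hmox1, 3 rose and 0 fell, the median log2 fold change being 0.07. Cyb5a, cytochrome b5, rose slightly, by 0.20 ± 0.07 (standard error; adjusted p = 0.0372, edgeR). Hmox1, which breaks down heme and also takes its electrons from Por, had 4621, 5100 and 4773 CPM in the KC_Epo libraries and 1327, 1241 and 1320 CPM in the KC_EV libraries and rose by 1.90 ± 0.08 (standard error; adjusted p = 3.69e-08, edgeR). Neither Por nor Hmox1 followed the order of the hepatocyte sum.

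Of 18 tested nuclear receptors and other regulators of P450 genes, 7 rose and 5 fell, the median log2 fold change being 0.17. Cebpa, a factor of both liver and myeloid cells, had 253, 325 and 290.2 CPM in the KC_Epo libraries and 141, 144 and 148 CPM in the KC_EV libraries and rose by 1.00 ± 0.09 (standard error; adjusted p = 7.84e-06, edgeR). Ahr, the receptor behind Cyp1a1, Cyp1a2 and Cyp1b1, had 15.01, 8.72 and 10.1 CPM in the KC_Epo libraries and 20.4, 21.4 and 20.9 CPM in the KC_EV libraries and fell by 0.88 on the log2 scale (SE 0.18, adjusted p in edgeR = 0.00338). Nr1i3, which encodes CAR, was under 1 CPM and not tested, with 17, 9 and 9 counts in KC_Epo 1 to 3 and 2, 9 and 5 counts in KC_EV 1 to 3. Of 5 tested AhR targets outside the family, 1 rose and 1 fell, beside 16.9% higher and 15.4% lower over all genes tested. Xdh, xanthine dehydrogenase, rose by 0.46 ± 0.07 (standard error; adjusted p = 0.000358, edgeR), Tiparp, a feedback inhibitor of AhR, fell by 0.31 on the log2 scale (SE 0.09, adjusted p in edgeR = 0.0168), and Serpinb2 did not pass, at -1.05 ± 0.50 (standard error; adjusted p = 0.129, edgeR).

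Other drug-handling enzymes moved in both directions. Of 28 tested conjugation enzymes, 10 rose and 1 fell, the median log2 fold change being 0.55. Mgst1, a membrane glutathione transferase, had 212, 153 and 176 CPM in the KC_Epo libraries and 59.6, 67.8 and 58.7 CPM in the KC_EV libraries and rose by 1.54 ± 0.12 (standard error; adjusted p = 1.08e-05, edgeR). Gstm1, a cytosolic glutathione transferase, rose by 0.84 ± 0.10 (standard error; adjusted p = 9.35e-05, edgeR). Of 31 tested oxidation and hydrolysis enzymes outside the family, 8 rose and 2 fell, with a median of 0.25. Ephx1, which opens epoxides made by P450 enzymes, had 191, 232 and 212 CPM in the KC_Epo libraries and 141, 119 and 122 CPM in the KC_EV libraries and rose by 0.73 ± 0.09 (standard error; adjusted p = 0.000101, edgeR). Hsd17b6, a steroid dehydrogenase of liver, had 10.2, 1.995 and 4.88 CPM in the KC_Epo libraries and 0.158, 0.3197 and 0.236 CPM in the KC_EV libraries and rose by 4.56 ± 0.67 (standard error; adjusted p = 0.00139, edgeR), in the order KC_Epo 1, 3, 2. Aox1, aldehyde oxidase, had 0.771, 0.772 and 0.775 CPM in the KC_Epo libraries and 5.23, 3.42 and 4.16 CPM in the KC_EV libraries and fell by 2.46 on the log2 scale (SE 0.31, adjusted p in edgeR = 0.000124).

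Markers of tumour cells, cholangiocytes and hepatocytes moved in different ways. Of the Hepa1-6 tumour markers, which summed to 9.58, 9.75 and 9.57 CPM in KC_Epo and to 8.95, 12.5 and 8.79 CPM in KC_EV, Epo was counted in the KC_Epo libraries only, with 29, 44 and 21 counts in KC_Epo 1 to 3 and 0, 0 and 0 counts in KC_EV 1 to 3. Afp did not pass, at 0.15 ± 0.21 (standard error; adjusted p = 0.628, edgeR), and Igf2bp3 fell by 2.11 on the log2 scale (SE 0.45, adjusted p in edgeR = 0.00413). The 6 cholangiocyte markers summed to 15.5, 9.11 and 11.7 CPM in KC_Epo and to 61.7, 36.3 and 28.5 CPM in KC_EV, with 3 of 5 tested lower. Alb had 14670, 3996 and 8589 CPM in the KC_Epo libraries and 1753, 2129 and 1950 CPM in the KC_EV libraries. It rose by 2.22 ± 0.54 (standard error; adjusted p = 0.0409, edgeR), in the order KC_Epo 1, 3, 2.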

How the data were processed

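The authors deposited unnormalized integer counts of reads, 1 row per gene symbol and 15458 rows in all, for the 6 libraries. Per the labels' protocols the polyA libraries were stranded. Per the submitters' processing notes, which give no role or order, the tools were Bowtie2 2.5.1, FastQC 0.11.8, HTSeq 0.11.2 and STAR 2.7.3a with build GRCm39. How strand and multiple matches were counted is not given in the sources used here. For 12 symbols with 2 rows, the larger row was used under that symbol.

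The whole table was fitted with edgeR 4.0.16 (R 4.3.3), using TMM scaling, filterByExpr and the robust quasi-likelihood F test, two-sided. P-values were adjusted by Benjamini-Hochberg over 13120 genes, with a threshold of 0.05, and standard errors were taken from the F statistic. CPM used TMM-scaled library sizes. Ratios to the hepatocyte sum used a prior of 0.5 counts. Floors were 3 counts over a group and intervals were exact at 95%; both cover counting error only. No library was a copy of another by a chi-square comparison within groups, which gave 6.03 to 81.1 per gene. The procedure was tested on simulated counts. Alternatives were RLE, upper-quartile or no size factors, other filters, a replicate block, DESeq2 1.42.0, limma-voom (limma 3.58.1), Alb alone or a prior of 1 in the ratio, and each library left out in turn; all CYP1, CYP2 and CYP3 genes as 1 class were added after the data were seen.

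P450 genes with a mean of 1 CPM in either group were named with all 6 values; others were named where a whole group had 0 counts or a role had few members, and some further low members were named after their values were seen. From each other list up to 3 genes with the smallest adjusted p were named, plus Por, Ppara, Ahr, Nr1i3, Alb and Fgf23. The members and the lists were chosen with earlier results of these data known. Exon lengths and the heme stretch came from GENCODE vM21 on GRCm38, another build than the counts, and promoters from RefSeq on GRCm38.p6, so no coordinate was taken over to the counts.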

Additional observations from a re-analysis of the deposited data

How the results depend on the processing

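Of 54 tested P450 genes, 30 were higher and 7 lower. Other size factors, filters and tools gave 25 to 35 higher and 6 to 8 lower. Leaving out each library in turn gave 16 to 36 higher and 3 to 8 lower; without KC_EV 1, 2 or 3 the higher counts were 17, 16 and 18, and without KC_EV 2, KC_EV 3 or KC_Epo 3 the lower counts were 4, 3 and 4. A fit with the replicate number as a block gave 18 higher and 5 lower. Deviations from the group means correlated at -0.108, -0.148 and -0.0407 between same-numbered libraries. These values showed no pairing by number, but with 3 libraries per group they cannot exclude it. Over all genes, 2219 were higher and 2015 lower, against 1193 and 3616 when only library sizes were used (all-gene median log2 fold change -0.16), and 1477 to 2410 higher and 1251 to 2147 lower with each library left out. Of 35 called members at 1 CPM or more, 13 passed in every setting that tested them and 22 lost the call in at least 1. The signs that turned belonged to members close to 0. Cyp20a1 turned to 0.0029 without a filter and 0.0066 with limma-voom, and ranged from -0.0698 to 0.0761 with a library left out. Cyp4f17 turned to -0.0128 under upper-quartile scaling and to -0.11 with library sizes only, and ranged from -0.18 to 0.25 with a library left out. Cyp4f18 ranged from -0.27 to 0.11, turning without KC_EV 2, and Cyp7b1 from -0.61 to 0.33, turning without KC_Epo 2, KC_Epo 3 or KC_EV 2. The cause of these shifts was not tested. The number of members above in the ratio to the hepatocyte sum, 18, was also 18 with Alb alone and with a prior of 1. Alb made up 71.8% of that sum in KC_Epo and 67.5% in KC_EV, so Alb alone was a similar divisor and could change little. The 8 intracellular enzymes of the list were not used as a divisor. The summed P450 level was 1213 CPM in KC_Epo and 836 CPM in KC_EV with library sizes only, against 1278 and 791 CPM. With all CYP1, CYP2 and CYP3 genes by name, added after the data were seen, the class averaged 5.74% of the hepatocyte sum in KC_Epo and 6.07% in KC_EV, against 5.59% and 5.62%. Depth limited the 13 members that were not tested, and no outlier test was run on groups of 3 libraries.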
